A study of Mus musculus with 8 samples.

Results

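Germline and meiosis genes are the group described here: *Dazl*, *Ddx4*, *Mael*, *Tdrd1*, *Stk31*, *Sycp3*, *Sycp1*, *Stag3*, *Hormad1* and *Slc25a31*. They were chosen by name as genes whose promoters are normally silenced by DNA methylation outside germ cells. All 10 were found among the 36808 genes of the RNA-seq table, and all 10 had values in its 8 libraries. The study compared mouse embryonic stem cells (ESCs) and their derivatives that lack or retain Polycomb Repressive Complex 2 (PRC2), the complex that places trimethylation on lysine 27 of histone H3 and needs its subunits SUZ12 and EED to do so. Each condition had 1 library, so no value has a replicate error. Lines of different genotype are not replicates of one another, and no test was made. Differences are given as log2 ratios and counts, and every comparison is between libraries.

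The 4 ESC libraries were wild-type E14, wild-type CJ7, *Suz12Δ*, an allele that truncates SUZ12, and *Eednull*, a point mutation of EED. The 4 libraries of day 5 of spinal motor neuron (SMN) differentiation were wild-type E14, *Suz12GT*, *Suz12Δ* and *Eednull*. *Suz12GT* is a gene trap that fuses SUZ12 to β-galactosidase and acts as a hypomorph. A *Suz12GT* ESC library was not analysed here. ESCs were grown on irradiated mouse embryonic fibroblasts with LIF. Differentiation removed LIF and added retinoic acid and an agonist of the hedgehog pathway. E14 and *Suz12GT* are of the 129/Ola background, CJ7 of 129/S, *Suz12Δ* of C57/BL6 and *Eednull* of BALB/cR1, so strain and genotype cannot be told apart in comparisons across these lines. The labels place the CJ7 library in the same preparation and sequencing as a library whose name matches the *Eednull* ESC column. The *Eednull* comparisons with E14 ESCs and over time may therefore cross batches, as may those of CJ7 with E14 and *Suz12Δ* ESCs.

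Values are FPKM, fragments scaled to transcript length and to the mapped total of the library, so levels can be compared between genes per unit of length. The number of reads behind each value is unknown. Ratios were taken as log2 of (FPKM + 0.1), leaving out genes below 0.1 FPKM on both sides of a comparison, and a gene was counted as higher or lower from a 2-fold difference on that scale. An exact 0 can be a failed estimate, and a gene at 0 is called listed at 0. In a population of cells, fewer cells expressing a gene and less RNA per cell cannot be told apart.

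*Suz12*, one of the mutated genes, was at 41.3 FPKM in E14, 53.1 in CJ7, 6.21 in *Suz12Δ* and 35.7 in *Eednull* ESCs. At day 5 it was at 16.2 FPKM in E14, 10.3 in *Suz12GT*, 11.6 in *Suz12Δ* and 17.6 in *Eednull* cells. Its RNA therefore did not set the *Suz12Δ* library apart at day 5. The point mutation of *Eed* need not change its RNA, which was at 42.4 FPKM in *Eednull* ESCs and 32.7 FPKM in E14 ESCs. *Pou5f1*, which encodes the pluripotency factor OCT4, was between 58.1 and 149 FPKM in the 4 ESC libraries and between 0.302 and 2.12 FPKM at day 5. The summed level of 8 motor neuron lineage genes was 147 FPKM in E14 and 115 FPKM in *Suz12GT* day 5 cells but 19.8 FPKM in *Suz12Δ* and 18.3 FPKM in *Eednull* day 5 cells. *Olig2*, which directs motor neuron progenitors, was at 22.1 FPKM in E14 and at 0.107 and 0.0455 FPKM in the *Suz12Δ* and *Eednull* cells. The last pair of libraries are therefore called day 5 cells and not SMNs.

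Germ cells use these genes to protect the genome and to carry out meiosis. In somatic cells their CpG-rich promoters are typically methylated, and in pluripotent cells low levels of some of their transcripts are often seen. A non-canonical Polycomb complex that contains MGA, MAX, E2F6 and PCGF6 binds E-box and E2F6 motifs at many germline promoters and keeps them repressed in ESCs. *Dazl* and *Ddx4* encode RNA-binding proteins of germ cells, the latter a DEAD-box helicase. *Mael* and *Tdrd1* encode components of nuage, the cytoplasmic granules in which piRNAs are made, and *Stk31* encodes a Tudor-domain protein of the testis. *Sycp1* and *Sycp3* encode structural proteins of the synaptonemal complex, *Stag3* a cohesin subunit of meiosis and *Hormad1* a protein of unsynapsed chromosome axes. *Slc25a31* encodes the ADP/ATP carrier of testis mitochondria.

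The promoters of 9 of the 10 genes carried a shared sequence feature, the E-box. The genes were chosen by name and not by sequence, and whether that choice favours the motif was not tested. The following are the 250 bases before the RefSeq start of 5 of the genes, on GRCm38.p6 and read 5′ to 3′ on the strand of the gene, with matches to the E-box (CACGTG) and to the E2F6 core (TCCCGC or GCGGGA) in capitals. *Sycp3* and *Hormad1* are shown because each holds 2 E-boxes, *Mael* because it followed the group most closely, *Slc25a31* because a single E-box is its only match before the start, and *Dazl* because it holds neither motif.
Sycp3 (chr10:88459337-88459586, plus strand): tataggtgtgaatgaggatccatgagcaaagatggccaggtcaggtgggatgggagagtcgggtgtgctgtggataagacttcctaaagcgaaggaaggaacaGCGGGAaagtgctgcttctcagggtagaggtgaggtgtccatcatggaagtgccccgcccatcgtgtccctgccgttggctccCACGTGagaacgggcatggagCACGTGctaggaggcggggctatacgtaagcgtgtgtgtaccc
Hormad1 (chr3:95559427-95559676, plus strand): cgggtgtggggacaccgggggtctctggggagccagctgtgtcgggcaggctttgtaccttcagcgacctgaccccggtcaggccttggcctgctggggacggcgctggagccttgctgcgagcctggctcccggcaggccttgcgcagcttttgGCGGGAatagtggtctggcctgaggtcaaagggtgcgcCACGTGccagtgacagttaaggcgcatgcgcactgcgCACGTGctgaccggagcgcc
Mael (chr1:166238745-166238994, minus strand): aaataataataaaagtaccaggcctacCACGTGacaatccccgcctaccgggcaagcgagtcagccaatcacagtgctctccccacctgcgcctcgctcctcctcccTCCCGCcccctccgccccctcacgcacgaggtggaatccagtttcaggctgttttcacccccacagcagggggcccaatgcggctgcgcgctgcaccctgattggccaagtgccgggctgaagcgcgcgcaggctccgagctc
Slc25a31 (chr3:40708621-40708870, plus strand): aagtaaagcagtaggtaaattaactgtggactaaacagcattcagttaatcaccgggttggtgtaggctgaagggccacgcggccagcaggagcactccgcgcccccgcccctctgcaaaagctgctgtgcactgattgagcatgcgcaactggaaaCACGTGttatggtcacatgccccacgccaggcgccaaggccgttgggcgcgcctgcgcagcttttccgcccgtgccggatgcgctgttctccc
Dazl (chr17:50293621-50293870, minus strand): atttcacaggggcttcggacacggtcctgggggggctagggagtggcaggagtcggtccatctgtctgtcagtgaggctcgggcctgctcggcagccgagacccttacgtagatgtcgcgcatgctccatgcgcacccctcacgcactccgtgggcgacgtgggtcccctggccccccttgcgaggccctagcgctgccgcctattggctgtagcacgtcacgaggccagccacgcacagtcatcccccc

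In windows from 250 bases before to 50 bases after the start, the E-box was present in 9 of the 10 genes (90.0%) and in 8.09% of 27025 genes with a window. The letters read the same on both strands. Among the 10038 genes with a window holding 15 or more CpGs, a limit chosen after the values were seen, the share was 12.0%. The median number of CpGs in a window was 24.5 for the 10 genes and 8 for all genes. At least 2 E-boxes in 1 window were found in 2 of the 10 genes and in 0.681% of all genes. The E2F6 core, searched on both strands, was present in 7 of the 10 genes (70.0%), against 22.0% of all genes and 47.2% of those rich in CpG. All 7 also held an E-box, with no overlap between the matches, and 715 genes in all held both.

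The matches did not lie at 1 fixed distance. In *Sycp3* the E-boxes began 64 and 43 bases before the start, in *Hormad1* 57 and 20 bases, in *Mael* 223 bases and in *Slc25a31* 93 bases. The *Slc25a31* window also held an E2F6 core that began 21 bases after the start. Among related germline genes the E-box was less frequent: it was found in 5 of 13 piRNA and nuage genes, in 5 of 14 genes of germ cell fate and meiotic entry and in 2 of 15 genes of the synaptonemal complex, cohesin and recombination. A match of letters is a description and does not show binding.

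**Figure D1:**
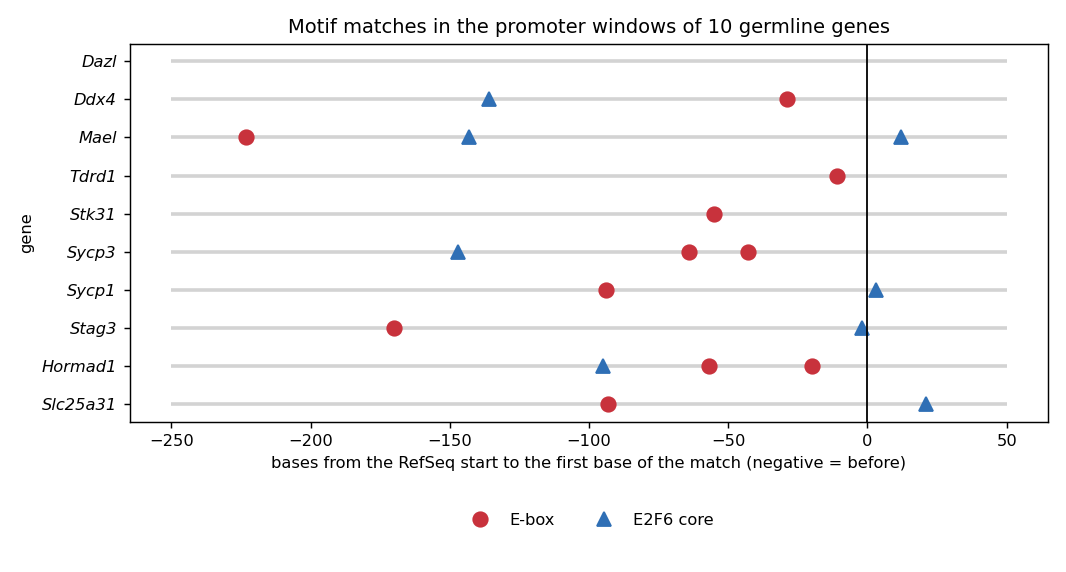
Positions of E-box (circles) and E2F6 core (triangles) matches in the first RefSeq promoter window of each gene, in bases from the start (horizontal axis; the vertical line is the start). E-boxes appear in 9 of the 10 rows, on either side of 100 bases before the start, and *Dazl* has no match of either kind.

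In ESCs every one of the 10 genes had a measurable level, and the order of the libraries differed between genes. The median over the genes was 6.90 FPKM in E14, 3.60 in CJ7, 1.89 in *Suz12Δ* and 5.42 in *Eednull* ESCs. E14 was the highest ESC library for 6 of the genes and *Eednull* for 4. *Suz12Δ* was the lowest for 9 of the 10, the exception being *Stag3*, for which *Eednull* was slightly lower. Shares of all genes with these orders were not counted. The median log2 ratio of all genes in *Suz12Δ* to E14 ESCs was -0.28.

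RNA of the genes for RNA-binding proteins was detected in every ESC library. *Dazl* was at 6.46 FPKM in E14, 3.23 in CJ7, 1.91 in *Suz12Δ* and 2.90 in *Eednull* ESCs. *Ddx4* was at 9.0 FPKM in E14, 6.49 in CJ7, 3.98 in *Suz12Δ* and 9.81 in *Eednull* ESCs. Both mutant lines were below both wild-type lines for *Dazl*, whereas *Ddx4* in *Eednull* ESCs was above both. *Ddx3x*, the X-linked DEAD-box helicase used in somatic cells, was between 97.1 and 186 FPKM in the same libraries.

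Among the nuage genes, *Mael* was at 10.7 FPKM in E14, 4.79 in CJ7, 2.47 in *Suz12Δ* and 8.11 in *Eednull* ESCs. *Stk31* varied least of the 10, between 4.04 FPKM in *Suz12Δ* and 5.80 FPKM in E14 ESCs. *Tdrd1* was between 0.692 FPKM in *Suz12Δ* and 1.3 FPKM in *Eednull* ESCs, with CJ7 at 0.702 FPKM. Of these 3 genes *Mael* alone differed from E14 by 2-fold, with log2 ratios of -2.07 in *Suz12Δ* and -1.15 in CJ7, and the latter was -0.93 after scaling of the libraries to equal 75th percentiles.

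The meiotic chromosome genes included the highest levels of the group. *Sycp3* was at 29.7 FPKM in E14, 3.98 in CJ7, 1.87 in *Suz12Δ* and 6.89 in *Eednull* ESCs. E14 therefore stood apart from the other 3 libraries, CJ7 included, and the log2 ratio of CJ7 to E14 was -2.87. Exons of *Sycp3* (chromosome 10 of NCBI build 37, 87922314 to 87935981) overlap those of *Chpt1* on the other strand. *Chpt1* was between 3.54 and 9.49 FPKM in the 8 libraries, and since no source states that counting used strand, reads of the pair cannot be told apart at those exons.

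*Stag3* was at 30.5 FPKM in E14, 15.0 in CJ7, 5.95 in *Suz12Δ* and 5.82 in *Eednull* ESCs. *Hormad1* was at 7.34 FPKM in E14, 3.17 in CJ7, 0.461 in *Suz12Δ* and 1.33 in *Eednull* ESCs. For both genes the mutant lines lay below both wild-type lines. *Sycp1* took another order, with 1.84 FPKM in E14, 2.39 in CJ7, 1.29 in *Suz12Δ* and 6.77 in *Eednull* ESCs. *Slc25a31*, the mitochondrial carrier, was at 2.26 FPKM in E14, 1.58 in CJ7, 1.03 in *Suz12Δ* and 3.09 in *Eednull* ESCs.

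**Figure D2:**
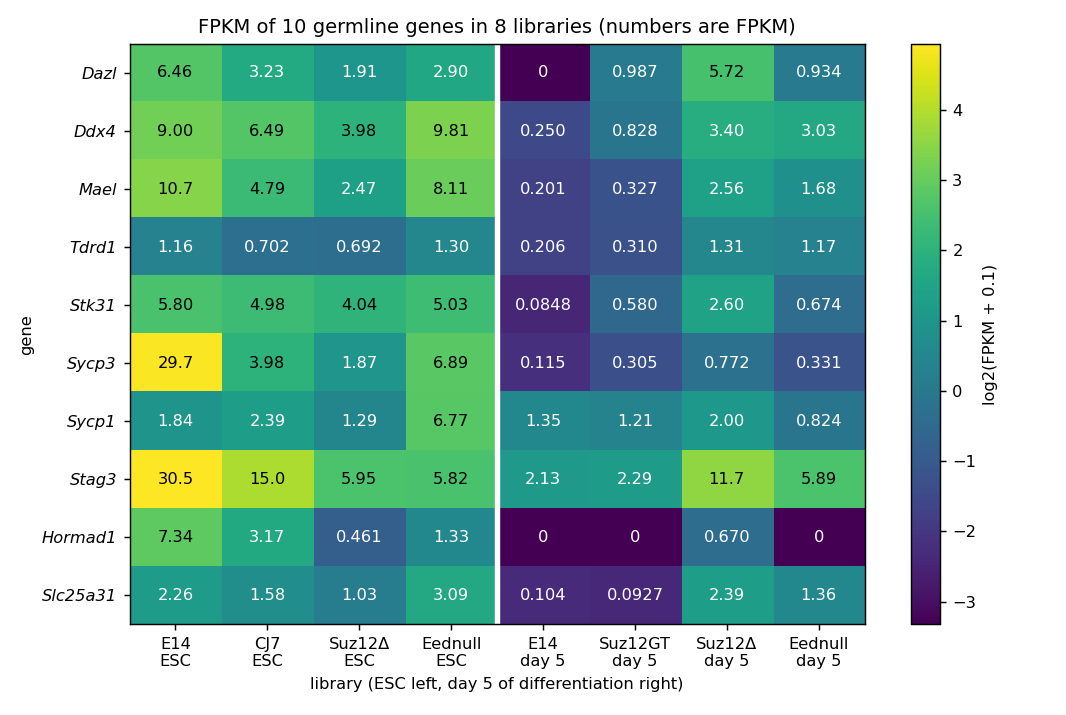
FPKM of each gene (rows) in each library (columns), printed in the cells and coloured by log2(FPKM + 0.1), with ESC libraries to the left of the white line and day 5 libraries to the right. *Sycp3* and *Stag3* in E14 ESCs are the highest cells at 29.7 and 30.5 FPKM. The E14 day 5 column is the lowest, or level with the lowest, of the day 5 libraries for 8 of the 10 genes. The share of all genes with this order was not counted.

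Compared with E14 ESCs, 7 of the 10 genes were at least 2-fold lower in *Suz12Δ* ESCs, where 22.8% of all 21980 genes compared were lower. None was higher, against 18.0% of all genes. The median log2 ratio of the 10 genes was -1.43, and that of all genes was -0.28. After the same scaling, *Ddx4* and *Slc25a31* passed back inside the limit and 5 genes remained lower. In *Eednull* ESCs 4 genes were lower (11.9% of all genes) and *Sycp1* was higher (22.4%), with a median log2 ratio of -0.30 against 0.04 for all genes. One of the 4, *Dazl*, was at -0.97 after scaling.

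The 2 wild-type lines also differed from each other, in libraries that may be of different batches. In CJ7 against E14 ESCs, 4 of the genes were lower, where 14.7% of all genes were, none was higher (15.7%), and the median log2 ratio was -0.82. After scaling only *Sycp3* remained lower in CJ7, against 5 genes in *Suz12Δ* and 3 in *Eednull* ESCs. With CJ7 as the wild type, 3 genes were lower in *Suz12Δ* (24.0% of all genes) and 2 in *Eednull* ESCs (10.7%). None was higher in *Suz12Δ* (21.1%), and *Sycp1* was higher in *Eednull* ESCs (20.5%), at a log2 ratio of 1.46. The median log2 ratio to CJ7 was -0.78 in *Suz12Δ* and 0.67 in *Eednull* ESCs, against -0.18 and 0.14 for all genes, so the sign of the *Eednull* median depended on the wild-type line. *Stag3* and *Hormad1* were lower in all 4 of these comparisons with a wild-type line. *Stag3* had log2 ratios of -1.32 and -1.35 to CJ7 in *Suz12Δ* and *Eednull* ESCs, and *Hormad1* had -2.54 and -1.19. Values of both mutant lines lay below both wild-type values for *Dazl*, *Stag3* and *Hormad1*, 3 of the 10, against 18.5% of all genes. None of the 10 lay above both, against 17.6%.

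Levels of other cell types moved with the *Suz12Δ* ESC values. The summed level of 12 fibroblast markers, such as *Col1a1* and *Postn*, was 128 FPKM in E14, 139 in CJ7, 837 in *Suz12Δ* and 324 in *Eednull* ESCs, and none of the 12 was listed at 0. Of these markers 11 were higher in *Suz12Δ* than in E14 ESCs. The summed level of 8 pluripotency genes was 851 FPKM in E14, 884 in CJ7, 384 in *Suz12Δ* and 757 in *Eednull* ESCs, and 6 of the 8 were lower in *Suz12Δ* than in E14 ESCs. Their part in the germline values was not tested. The somatic relatives *Stag1*, *Slc25a4*, *Slc25a5* and *Ddx3x* lay within 2-fold of E14 in *Suz12Δ* ESCs, and *Stag2* had a log2 ratio of -1.03.

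In wild-type cells nearly the whole group was lower after differentiation. In E14 cells 9 of the 10 genes were at least 2-fold lower at day 5 than in ESCs, where 25.8% of all 21563 genes compared were lower, and none was higher (18.3%). Their median log2 ratio was -4.85, and that of all genes was -0.20. *Dazl* and *Hormad1* were listed at 0 at day 5, from 6.46 and 7.34 FPKM. *Sycp3* had the largest log2 ratio between measured values, -7.11, from 29.7 to 0.115 FPKM.

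Other falls were from 9.0 to 0.250 FPKM for *Ddx4*, from 10.7 to 0.201 FPKM for *Mael* and from 5.80 to 0.0848 FPKM for *Stk31*. *Slc25a31* went from 2.26 to 0.104 FPKM and *Tdrd1* from 1.16 to 0.206 FPKM. *Stag3* fell from 30.5 to 2.13 FPKM and so kept the highest day 5 level of the group in E14. *Sycp1* was the exception, at 1.84 FPKM in ESCs and 1.35 FPKM at day 5. Over the same interval *Stag1* and *Stag2*, the cohesin subunits of somatic cells, had log2 ratios of -0.17 and 0.21. *Slc25a4*, the carrier of heart and muscle, had 0.22, *Slc25a5* had -0.75 and *Ddx3x* had -0.45.

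In *Suz12Δ* cells the group as a whole did not fall. *Dazl* went from 1.91 to 5.72 FPKM and *Slc25a31* from 1.03 to 2.39 FPKM, and these 2 were at least 2-fold higher at day 5 than in ESCs of the same line (26.9% of all genes). *Stag3* went from 5.95 to 11.7 FPKM, a log2 ratio of 0.97. *Sycp3* alone was lower (12.6% of all genes), from 1.87 to 0.772 FPKM. The median log2 ratio of the 10 genes was 0.52 and that of all genes was 0.43. After scaling, *Slc25a31* fell inside the 2-fold limit at 0.78 and the sign of *Mael* changed from 0.04 to -0.32.

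*Eednull* cells took an intermediate course. At day 5, 8 of the 10 genes were lower than in *Eednull* ESCs, where 24.8% of all genes were, none was higher (18.4%), and the median log2 ratio was -1.93. *Stag3* was at 5.82 FPKM in ESCs and 5.89 FPKM at day 5, and *Tdrd1* was at 1.3 and 1.17 FPKM. *Ddx4* went from 9.81 to 3.03 FPKM and *Mael* from 8.11 to 1.68 FPKM, both remaining above the E14 day 5 level. *Sycp3* went from 6.89 to 0.331 FPKM, *Sycp1* from 6.77 to 0.824 FPKM, and *Hormad1* from 1.33 FPKM to listed at 0.

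**Figure D3:**
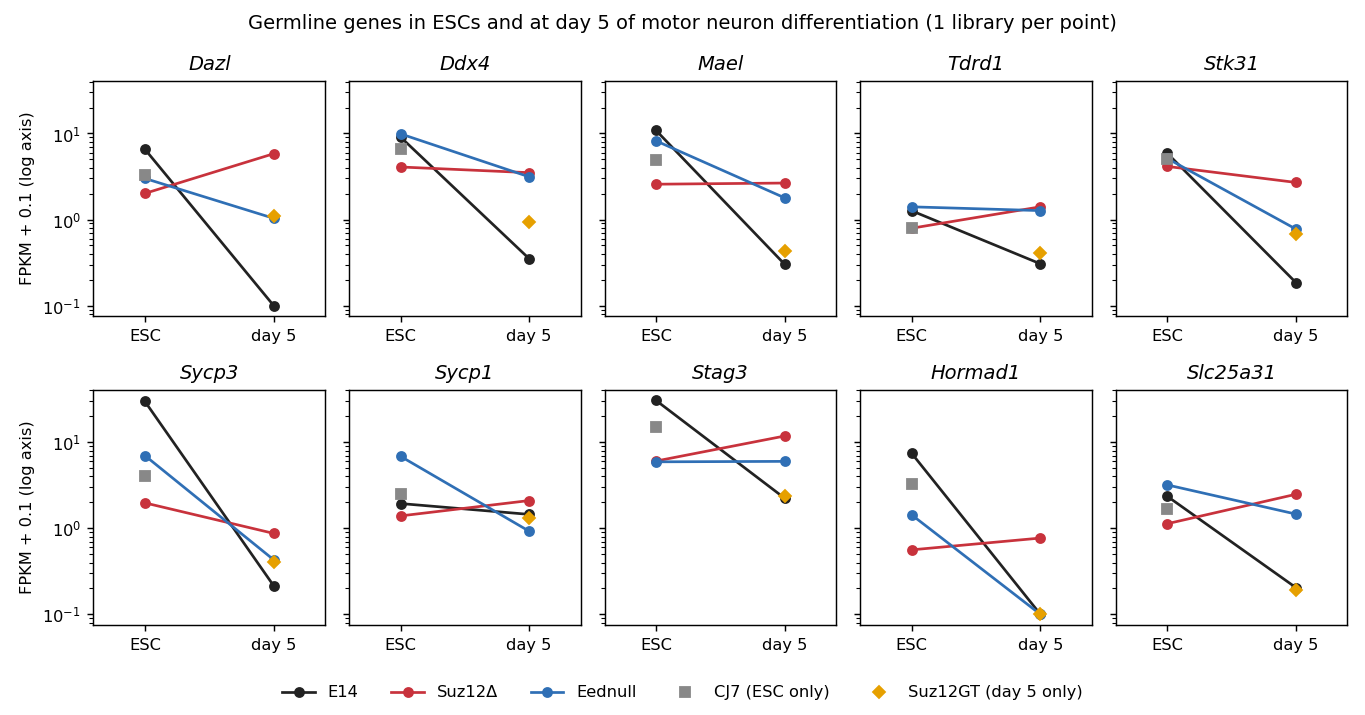
FPKM + 0.1 on a log axis in ESCs and at day 5, 1 panel per gene, with a line for each genotype measured at both stages, a square for CJ7 ESCs and a diamond for *Suz12GT* day 5 cells. The E14 line drops by at least 2-fold in 9 of the 10 panels, and for *Sycp1* it drops by less. The *Suz12Δ* line is close to level or rises in most panels.

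The share of the ESC level that remained at day 5 differed between lines. For the 10 genes its median was 2.32% in E14, with a range from 0 to 73.4%, 150% in *Suz12Δ*, from 41.2 to 299%, and 25.9% in *Eednull* cells, from 0 to 101%. The *Suz12Δ* level exceeded 100% for 7 of the 10 genes, or 6 after scaling, a share near the 67.5% of all genes at 1 FPKM or more in those ESCs. The median over every gene whose ESC level reached 1 FPKM was 83.9% in E14, 129% in *Suz12Δ* and 98.9% in *Eednull* cells. In *Suz12Δ* cells scaling brought the median of these genes to 98.9%, and it multiplied every share in that line by 0.766.

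The fate of other genes that wild-type cells turn down gives a closer background. In E14, 1841 genes at 1 FPKM or more in ESCs were at least 4-fold lower at day 5, and 9 of the 10 germline genes were among them. In *Suz12Δ* the median share of the ESC level that remained was 64.3% over 1731 such genes with a measurable ESC level and 145% over the 9 germline genes, and 57.6% of the former and 8 of the 9 kept more than 50%. In *Eednull* cells the medians were 34.1% over 1717 such genes and 30.9% over the 9 germline genes, and 37.4% of the former and 2 of the 9 kept more than 50%. The germline genes thus lay near this background in *Eednull* cells and above it in *Suz12Δ* cells, with no test of either. The *Suz12Δ* shares are relative to a low start, since *Suz12Δ* was the lowest ESC library for 9 of the 10 genes. The median of the 10 genes was 1.89 FPKM in *Suz12Δ* ESCs and 2.47 FPKM in *Suz12Δ* day 5 cells, both below the 6.90 FPKM of E14 ESCs.

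Pluripotency genes, which share the ESC state with the germline genes, fell in all 3 lines. Their median share of the ESC level was 0.121% in E14, 7.35% in *Suz12Δ* and 1.46% in *Eednull* cells, and no pluripotency gene kept more than 31.1% in the *Suz12Δ* cells. The germline genes in *Suz12Δ* cells, at 41.2% or more, did not overlap that range. Most genes lay above it too: of all genes at 1 FPKM or more in *Suz12Δ* ESCs, 88.7% kept more than 50%. Fibroblast markers did overlap the germline genes. All 12 were lower at day 5 in E14, and their median share of the ESC level was 2.22% in E14, 41.1% in *Suz12Δ*, with a range from 0.624 to 106%, and 50.5% in *Eednull* cells, from 0.92 to 858%. Markers of the 2-cell-like state, a rare state of ESC cultures, were at a median of 2.22% in E14, 74.6% in *Suz12Δ* and 2.64% in *Eednull* cells over 4 genes. The 3 *Zscan4* genes among them are near-identical copies whose reads may be shared.

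**Figure D4:**
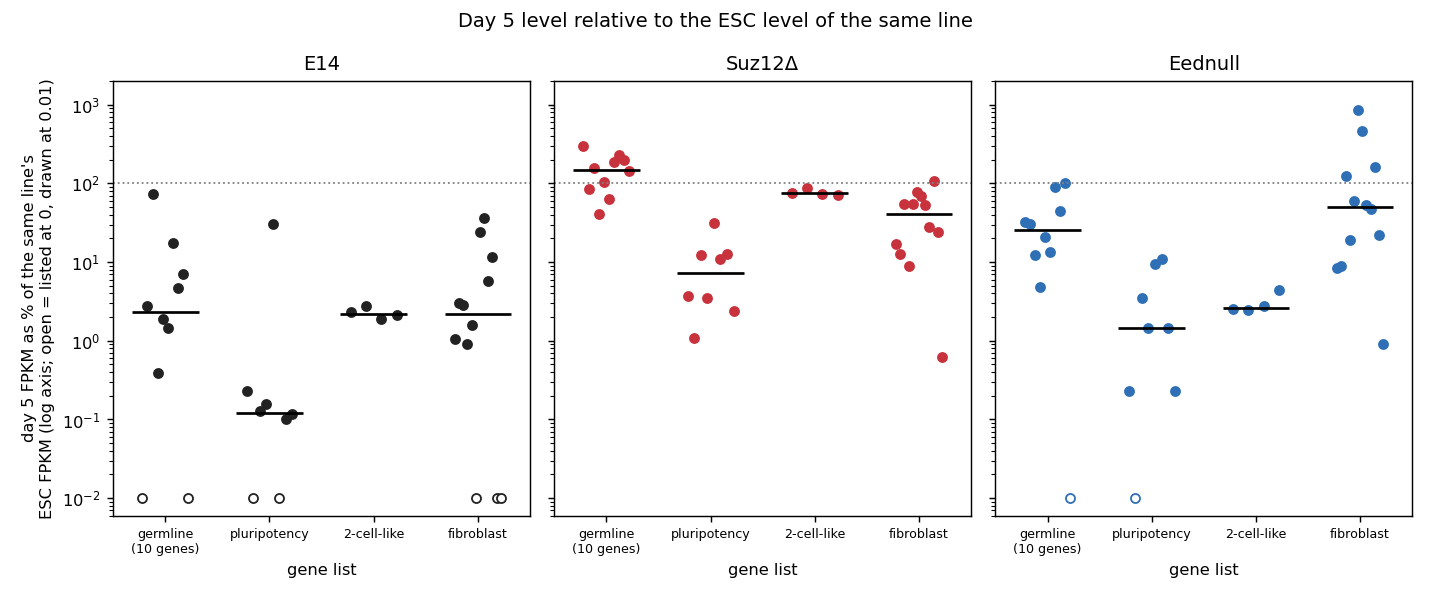
Day 5 FPKM as a percentage of the ESC FPKM of the same line, on a log axis, for the 10 germline genes, 8 pluripotency genes, 4 genes of the 2-cell-like state and 12 fibroblast markers, with 1 point per gene and a bar at the median; open points are listed at 0 and drawn at 0.01. In *Suz12Δ* cells the germline points lie between 41.2 and 299% and the pluripotency points at 31.1% or below, while the fibroblast points reach 106%.

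At day 5 the mutant lines could be set against E14 directly. These comparisons share the E14 day 5 library. *Suz12Δ* was the highest of the 4 day 5 libraries for all 10 genes, and E14 was the lowest, or level with the lowest, for 8. Shares of all genes with these orders were not counted. The median log2 ratio of all genes in *Suz12Δ* to E14 day 5 cells was 0.26. The median level was 0.158 FPKM in E14, 0.453 in *Suz12GT*, 2.47 in *Suz12Δ* and 1.05 in *Eednull* cells.

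In *Suz12Δ* day 5 cells 9 of the 10 genes were at least 2-fold higher than in E14, where 26.6% of all 22069 genes compared were, and none was lower (9.52%). The median log2 ratio was 3.04, and that of all genes was 0.26. In *Eednull* day 5 cells 8 of 9 genes compared were higher (21.6% of all genes), none was lower (11.3%), and the median was 2.07. In *Suz12GT* cells 3 of 9 were higher (16.8%), none was lower (4.4%), and the median was 0.51. *Hormad1* was left out of the last pair of comparisons because it was listed at 0 on both sides. With a pseudocount of 1 the counts were 6, 4 and 0 in the same order, and without genes listed at 0 in either library they were 7, 7 and 2.

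RNA of *Dazl* and *Ddx4* was higher than in E14 in every mutant line. In *Suz12GT* cells neither was 2-fold higher with a pseudocount of 1. *Dazl* was listed at 0 in E14 and at 0.987 FPKM in *Suz12GT*, 5.72 in *Suz12Δ* and 0.934 in *Eednull* cells. *Ddx4* was at 0.250 FPKM in E14, 0.828 in *Suz12GT*, 3.40 in *Suz12Δ* and 3.03 in *Eednull* cells. For *Ddx4* the lines without PRC2 activity were well above both others, while for *Dazl* the *Suz12GT* and *Eednull* values were close. The log2 ratios of *Ddx4* to E14 were 1.41, 3.32 and 3.16 in that order.

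Among the nuage genes, *Mael* and *Tdrd1* followed *Ddx4*, while *Stk31* had close *Suz12GT* and *Eednull* values, as *Dazl* did. *Mael* was at 0.201 FPKM in E14, 0.327 in *Suz12GT*, 2.56 in *Suz12Δ* and 1.68 in *Eednull* cells. *Tdrd1* was at 0.206 FPKM in E14, 0.310 in *Suz12GT*, 1.31 in *Suz12Δ* and 1.17 in *Eednull* cells. *Stk31* was at 0.0848 FPKM in E14, 0.580 in *Suz12GT*, 2.60 in *Suz12Δ* and 0.674 in *Eednull* cells. In *Suz12GT* cells only *Stk31* of these 3 passed the 2-fold limit, at a log2 ratio of 1.88.

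Of the meiotic chromosome genes, *Stag3* was at 2.13 FPKM in E14, 2.29 in *Suz12GT*, 11.7 in *Suz12Δ* and 5.89 in *Eednull* cells. Its *Suz12GT* level was within 2-fold of E14, and its log2 ratios in *Suz12Δ* and *Eednull* cells were 2.41 and 1.43. *Sycp3* was at 0.115 FPKM in E14, 0.305 in *Suz12GT*, 0.772 in *Suz12Δ* and 0.331 in *Eednull* cells, and its log2 ratio in *Eednull* cells, 1.0, was at the limit. *Hormad1* was measured in *Suz12Δ* cells only, at 0.670 FPKM, and listed at 0 in the other 3 libraries.

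*Sycp1* again differed from the rest, with 1.35 FPKM in E14, 1.21 in *Suz12GT*, 2.0 in *Suz12Δ* and 0.824 in *Eednull* cells, all within 2-fold of E14. *Slc25a31* was at 0.104 FPKM in E14, 0.0927 in *Suz12GT*, 2.39 in *Suz12Δ* and 1.36 in *Eednull* cells. Its *Suz12GT* level was close to that of E14, and its log2 ratios in the other lines were 3.61 and 2.84. *Slc25a4* and *Slc25a5*, the carriers of somatic cells, lay within 2-fold of E14 in all 3 mutant lines. *Slc25a5* in *Suz12Δ* cells, at a log2 ratio of 0.99, was next to the limit.

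For 7 of the 10 genes, namely *Ddx4*, *Sycp3*, *Mael*, *Stk31*, *Tdrd1*, *Slc25a31* and *Stag3*, both *Suz12Δ* and *Eednull* values lay above both E14 and *Suz12GT* values, against 34.4% of all genes. None lay below both, against 22.0%. Most fibroblast and pluripotency markers moved in the same direction. All 8 motor neuron lineage genes moved the other way in *Suz12Δ* and *Eednull* cells, with median log2 ratios to E14 of -3.06 and -4.34. Of all genes, 16.8% were higher than in E14 in *Suz12GT*, 26.6% in *Suz12Δ* and 21.6% in *Eednull* cells. In *Suz12Δ* and *Eednull* cells 9.52% and 11.3% were lower. The 12 fibroblast markers summed to 5.60 FPKM in E14, 24.0 in *Suz12GT*, 144 in *Suz12Δ* and 77.1 in *Eednull* cells, and all 12 were higher than in E14 in each of the latter 2 lines. *Lum*, *Fap* and *S100a4* were listed at 0 in E14, and *Fap* also in *Suz12GT* cells. Of 8 pluripotency genes 7 were higher than in E14 in *Suz12Δ* cells, and 5 of 7 compared were higher in *Eednull* cells. *Sox2* was lower in both, at log2 ratios of -2.45 and -1.86. The 4 measured genes of the 2-cell-like state were higher in *Suz12Δ* and within 2-fold of E14 in *Eednull* cells. In *Suz12GT* cells, where 3 of 9 germline genes were higher, so were 10 of 11 fibroblast markers, 7 of 8 pluripotency genes and the 4 genes of the 2-cell-like state, with median log2 ratios of 2.10, 2.29 and 1.54. Their part in the germline values was not tested.

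Other genes of the same pathways were then counted. Of the genes of the synaptonemal complex, cohesin and recombination, 14 were compared with E14 at day 5 in *Suz12Δ* and *Eednull* cells. In *Suz12Δ* cells 13 were higher (26.6% of all genes) and in *Eednull* cells 12 (21.6%), with none lower in either (9.52% and 11.3%). *Syce1*, a central element protein, was at 0.143 FPKM in E14 and at 4.05 and 3.36 FPKM in the *Suz12Δ* and *Eednull* cells. *Tex15*, needed for meiotic recombination and piRNA silencing, was at 0.253 FPKM in E14 and at 6.99 and 7.54 FPKM in those lines. *Smc1b*, the meiotic SMC1 subunit of cohesin, was at 0.194 FPKM in E14 and 3.48 FPKM in *Suz12Δ* cells, and *Tex11*, a recombination factor on the X chromosome, was at 0.373 FPKM in E14 and 3.99 FPKM in *Eednull* cells. The lowest ratios of the list were those of *Msh5*, a MutS homologue of crossovers, with log2 values of 0.39 in *Suz12Δ* and 0.14 in *Eednull* cells. In *Suz12GT* cells 4 of 11 were higher (16.8% of all genes) and none lower (4.4%).

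*Rec8*, the meiotic kleisin of cohesin, did not fall in wild-type cells, at 8.80 FPKM in E14 ESCs and 14.7 FPKM at day 5. It was at 37.5 FPKM in *Suz12GT*, 63.1 in *Suz12Δ* and 58.4 in *Eednull* day 5 cells.

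Among piRNA and nuage genes, 9 of 13 were higher in *Suz12Δ* (26.6% of all genes) and 6 of 11 in *Eednull* cells (21.6%). In each line 1 was lower (9.52% and 11.3%). *Tex19.1*, a germ cell gene that restrains retrotransposons, was at 0.529 FPKM in E14, 2.59 in *Suz12GT*, 8.90 in *Suz12Δ* and 5.92 in *Eednull* cells. *Tdrd5*, a Tudor-domain protein of nuage, was listed at 0 in E14 and was at 0.351 FPKM in *Suz12GT*, 1.60 in *Suz12Δ* and 1.3 in *Eednull* cells. *Asz1*, another nuage component, was measured in *Suz12Δ* day 5 cells, at 1.45 FPKM, and listed at 0 in the other 3 day 5 libraries. *Pld6*, a mitochondrial enzyme of piRNA production, was at 0.264 FPKM in E14, 2.64 FPKM in *Suz12Δ* and 1.76 FPKM in *Eednull* cells. *Piwil2*, a PIWI protein that binds piRNAs and was chosen after its values were seen, was at 0.0792 FPKM in E14, 2.46 FPKM in *Suz12Δ* and 0.452 FPKM in *Eednull* cells. The gene that was lower in both was *Tdrkh*, at 14.4 FPKM in E14 and 4.28 and 2.66 FPKM in the mutant cells.

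Of the genes of germ cell fate and meiotic entry, 11 of 14 were higher in *Suz12Δ* cells (26.6% of all genes). In *Eednull* cells 7 of 10 were higher (21.6%) and in *Suz12GT* cells 9 of 12 (16.8%). None was lower in these lines (9.52%, 11.3% and 4.4% in the same order). *Stra8*, which retinoic acid induces at meiotic entry, was at 2.17 FPKM in E14, 18.9 in *Suz12GT*, 56.8 in *Suz12Δ* and 20.4 in *Eednull* cells. *Rbm46*, an RNA-binding protein of germ cells, was at 0.696 FPKM in E14 and between 5.92 and 7.73 FPKM in the 3 mutant lines. *Prdm1*, which encodes the germ cell specifier BLIMP1, and *Taf7l*, a TFIID subunit of germ cells, were listed at 0 in E14 and were at 3.11 and 2.26 FPKM in *Suz12Δ* cells and 3.02 and 1.25 FPKM in *Eednull* cells. *Nanos3*, which protects primordial germ cells, had the smallest ratio in *Suz12Δ* cells among genes of the list at 1 FPKM or more, with 1.84 FPKM in E14 and 2.80 FPKM in *Suz12Δ* cells. *Prdm14*, named after its values were seen and which ESCs and primordial germ cells share, did not follow: it was at 5.39 FPKM in E14 ESCs and at 0.0411 FPKM or below in all day 5 libraries.

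Products of later gametes were low. *Prm2*, *Tnp1* and *Pgk2* were listed at 0 in all 8 libraries, and the summed level of 12 such genes was between 1.76 and 5.54 FPKM in the ESC libraries and between 0.513 and 0.744 FPKM in the day 5 libraries. Much of the ESC sum was *Zp3*, a protein of the egg coat named after its values were seen, at 1.76 FPKM in E14 and 3.12 FPKM in CJ7 ESCs. At day 5 only 3 of them could be compared with E14 in *Suz12Δ* and 2 in *Eednull* cells. In each line 1 was higher and 1 lower than E14. The higher gene differed between the lines and each time was listed at 0 in E14.

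**Figure D5:**
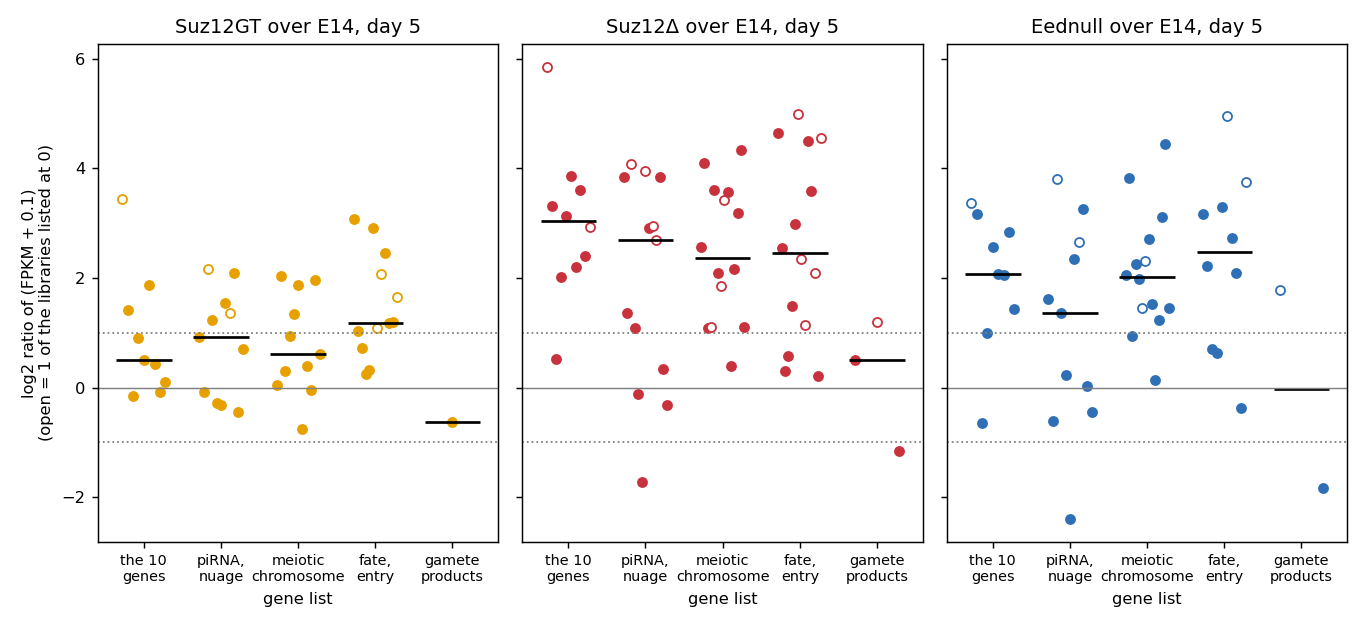
Log2 ratios of (FPKM + 0.1) to E14 day 5 in *Suz12GT*, *Suz12Δ* and *Eednull* day 5 cells, for the 10 genes and 4 lists of related germline genes, with 1 point per gene compared, a bar at the median, dotted lines at 2-fold, and open points where 1 of the libraries is listed at 0. The medians of the 10 genes are 0.51, 3.04 and 2.07, and few gamete products could be compared.

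Most known repressors of germline promoters were within 2-fold of E14 at day 5. In *Suz12GT* cells 1 of 19 was higher, *Dnmt3l* (16.8% of all genes), and none was lower (4.4%). Of 18 compared with E14, 2 were higher in *Suz12Δ* (26.6%) and none in *Eednull* cells (21.6%). None was lower in either (9.52% and 11.3%). The 2 in *Suz12Δ* cells were the de novo methyltransferases *Dnmt3a*, at 12.1 FPKM in E14 and 27.1 FPKM in *Suz12Δ* cells, and *Dnmt3b*, at 3.58 and 7.74 FPKM. Of these, 1 gene passed the limit after scaling. *Dnmt3l*, the cofactor of the de novo DNA methyltransferases, was at 34.3 FPKM in E14, 60.0 in CJ7, 128 in *Suz12Δ* and 186 in *Eednull* ESCs, was listed at 0 in 3 day 5 libraries and was at 1.01 FPKM in *Suz12GT* day 5 cells. In *Suz12Δ* ESCs 7 of 19 repressors were lower than in E14 (22.8% of all genes), and 1 of 19 was lower after scaling. Among the 7 was *Pcgf6*, at 6.43 FPKM against 22.5 FPKM in E14. DNA methylation was not analysed here.

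The 10 genes followed a common pattern to different degrees. Over the 8 libraries, several of which are of the same line, the Pearson correlation of log2(FPKM + 0.1) with the mean of the other 9 genes was highest for *Mael* (0.985), *Ddx4* (0.963) and *Stk31* (0.938) and lowest for *Sycp1* (0.534). Among 17915 genes ranked by likeness to the mean of the 10, the nearest outside the group were *Mei4* (0.992), a gene of meiotic double-strand break formation, *Wwc2* (0.989), *Naprt1* (0.988), *Abcc4* (0.987) and *Gm14124* (0.987). *Mei4* was at 1.28 FPKM in E14 ESCs, 0.0720 FPKM in E14, 0.671 FPKM in *Suz12Δ* and 0.307 FPKM in *Eednull* day 5 cells. The 5 nearest to *Dazl* alone were *Gulo* (0.972), *Gm6768* (0.971), *Cacng8* (0.967), *Ncoa4* (0.964) and *Mt2* (0.964). These correlations are descriptions over 8 points.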

How the data were processed

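RNA-seq values of 8 libraries were used, 1 per condition, grouped by their labels. The authors deposited FPKM per gene, made with Bowtie 0.12.7, TopHat 1.3.2, Cufflinks 1.2.1 and Cuffdiff on NCBI build 37 with an Ensembl-based annotation, with bias correction and multi-read correction. No column of the table was left out. Log2 ratios used a pseudocount of 0.1, which understates changes of low genes, and genes below 0.1 FPKM in both libraries were left out. The ratio step was tested on simulated data, with known changes put only into genes at 1 FPKM or more. That test does not cover lower levels, where many of the day 5 values lie. Depth is unknown: low values showed no steps of single reads, with at most 4.74% of low genes sharing the commonest ratio between libraries. Sums of FPKM ranged from 389165 to 797748. Up to 5 genes in a library had an exact 0 but reached 10 FPKM in each of the others.

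The 10 genes, the related lists and the markers were chosen with earlier results of these data known. Genes named in the text are the 10, the 3 highest and 3 lowest ratios of each list among genes at 1 FPKM or more, of which the most extreme are printed, and the 5 of most similar pattern. Of the listed genes, *Syce3*, *Tfap2c*, *Usp17lc* and *Tcstv1* were not found under these symbols and *Tcstv3* was listed at 0 throughout. Gene coordinates are from GENCODE vM1 on build 37, which held 36104 of 36808 identifiers. Promoter windows are from RefSeq on GRCm38.p6, and all 10 genes matched by symbol. Counts were repeated with a pseudocount of 1 or 0.01, with a minimum of 1 FPKM or none, with 75th percentile scaling over 17842 genes, a 4-fold limit and CJ7 as wild type, and with 2 chosen after seeing the data: genes above 0 in both libraries, and the 9 genes other than *Sycp1*. Python 3.11.15, NumPy 2.4.6, pandas 2.3.3 and Matplotlib 3.10.9 were used.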

Additional observations from a re-analysis of the deposited data

Results flagged for a closer look

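Several genes changed in opposite directions between ESCs and day 5 in different lines. In E14 all 10 genes had negative log2 ratios of day 5 to ESC, while in *Suz12Δ* cells the ratio was 1.53 for *Dazl*, 1.14 for *Slc25a31*, 0.97 for *Stag3*, 0.83 for *Tdrd1*, 0.59 for *Sycp1*, 0.46 for *Hormad1* and 0.04 for *Mael*. In *Eednull* cells *Stag3* had a ratio of 0.02. Each line had 1 library per stage, so these differences were not tested. The median log2 ratio of all genes was 0.43 in *Suz12Δ* cells, above that of *Mael*, and -0.08 in *Eednull* cells. After scaling, *Mael* had -0.32 and *Stag3* in *Eednull* cells had -0.01.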

How the results depend on the processing

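Of 148 recomputed counts of the 10 genes past the limit, 130 stayed within 1.5 times the reported count and 18 did not. With a pseudocount of 1, the count higher at day 5 than E14 was 0 in *Suz12GT* and 4 in *Eednull* cells, and over time in *Suz12Δ* 1 was higher and 0 lower. With a minimum of 1 FPKM the first pair of counts was 0 and 5. With 75th percentile scaling 1 gene was lower in CJ7 than in E14 ESCs and 1 was higher over time in *Suz12Δ*. A 4-fold limit, which by construction counts fewer genes, left 1 lower in CJ7, 4 lower in *Suz12Δ* ESCs, 0 higher in *Eednull* ESCs, 1 higher in *Suz12GT* day 5 cells, 0 higher and 0 lower over time in *Suz12Δ*, and 5 lower over time in *Eednull* cells. Against CJ7, 3 genes were lower in *Suz12Δ* and 2 in *Eednull* ESCs. Without *Sycp1*, 0 genes were higher in *Eednull* ESCs. The cause of the other moves was not tested. Of 314 recomputed ratios of single genes, 34 moved and none reversed in call. No fit with the line as a block was made: E14, *Suz12Δ* and *Eednull* were each measured at both stages, but their genotypes differ and the 3 pairs are not replicates of one change. With 1 library per condition, none could be left out within a condition. Values near or below 0.1 FPKM limit the ratios of *Stk31*, *Slc25a31* and *Sycp3* at day 5, where the depth is unknown.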
